A study of Mus musculus with 6 samples.

Results

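Axon guidance genes encode the ligands and receptors by which growing axons are attracted or repelled, and many of them stay active at synapses of the adult brain. Transcripts of 63 genes, chosen by name for this role, were compared between brain tissue of male mice with high and with low sexual motivation. The names were matched in the deposited table of 13170 genes: Eph receptors and ephrins, semaphorins and plexins, neuropilins, Slit and Robo genes, netrins and Unc5 receptors. The match also took Unc50, a Golgi protein gene that shares only its first letters with the netrin receptors, so 62 of the 63 are guidance genes. Dcc, the netrin receptor gene that was also sought, has no row in the table and was not analysed here. The remaining genes comprise 31 ligands and 31 receptors in 18 families.

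Each group holds 3 libraries from mice labelled C57, called high libraries 1 to 3 and low libraries 1 to 3, and no treatment or transgene is labelled. The tissue is given in more than 1 way, as brain, as MeA and medial amygdala, and as PrL, and the labels give neither the animals behind each library nor how motivation was scored. Every p-value thus reflects how far these 6 libraries scatter, some of which may be technical. Expression is in FPKM, fragments per length of transcript and per mapped fragments, so levels may be compared between genes, while the depth of the libraries is unknown.

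Of 10 markers of amygdala and subpallium, 9 are listed and Sim1 is not, and Lhx6, a transcription factor of subpallial interneurons, had 7.67 to 9.50 FPKM. Slc17a7, a glutamate transporter gene typical of cortical neurons, had 138 to 256 FPKM, and Esr1, the oestrogen receptor gene of the medial amygdala, had 0.446 to 1.16. Of the 9 listed amygdala and subpallium markers, 6 had a higher and 3 a lower mean in the high group. Groups were separate for Otp on the higher side and for Esr1 and Prlr on the lower side. Low libraries 1 and 3 carried transcripts of the choroid plexus, with a summed level of 10 markers of 1340 and 4174 FPKM, where low library 2 had 81.8 and the high libraries 41.5 to 111, with 0 of the 10 markers listed at 0 in any library. The 7 listed markers of ependymal cells, all lower in mean in the high group and 6 with separate groups, summed to 11.8 to 13.8 FPKM in the high and 20.6 to 40.5 in the low group. Prlr had 1.19, 0.629 and 2.43 FPKM in low libraries 1 to 3, the order of their choroid plexus sums. In the high libraries its order differed from that of the sums, and the part of choroid plexus in its level was not tested. In bulk tissue, fewer cells of a type and less RNA per cell cannot be told apart.

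In outline, ephrins bind Eph receptor kinases and both partners can signal. Semaphorins bind plexins, most of the secreted class 3 through neuropilins as co-receptors. Slit proteins act on Robo receptors, and netrins on Dcc and on the Unc5 receptors, which mediate repulsion.

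No member differed between the groups after adjustment. Of the 63 members, 62 passed the filter of a mean FPKM of at least 1, and limma called 0 of them at an adjusted p under 0.05, as it called 0% of all 12026 genes tested. At an unadjusted p under 0.05, 2 members were higher in the high group, or 3.23%, against 4.12% of all genes, and 4 were lower, or 6.45%, against 4.27%. The 2 were Sema6c and Sema4g, and the 4 were Epha4, Plxnd1, Plxnc1 and Robo3. Of these, Robo3 passed the filter only through its level in the low group. Together the 6 make up 9.68% of the tested members, close to the 8.39% of all genes. Without high library 2 the count was 14 members, or 22.6%, against 11.0% of all genes, and without low library 1 it was 4, or 6.45%, against 4.95%. All 3 high libraries lay above all 3 low libraries for 3 members, or 4.84%, against a background of 7.33%, and below them for 4 members, or 6.45%, against 7.61%. These 7 are the same 6 genes and Sema4a, and both shares lie below the background. Leaving out any 1 library gave 10 to 20 such members of 62, against 22.1% to 28.5% of all genes, since smaller groups separate more often. The members' share was above that of all genes without high library 2 (20 of 62 against 28.5%) and without low library 2 (16 of 62 against 24.6%). It was below that of all genes when any other library was left out. Shares this near the background say nothing particular about the members. The authors' deposited table, whose p is unadjusted, has 3 members higher at a p under 0.05 and 3 lower, each 4.76% of the 63, against 3.79% and 3.61% of all its genes.

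**Figure D1:**
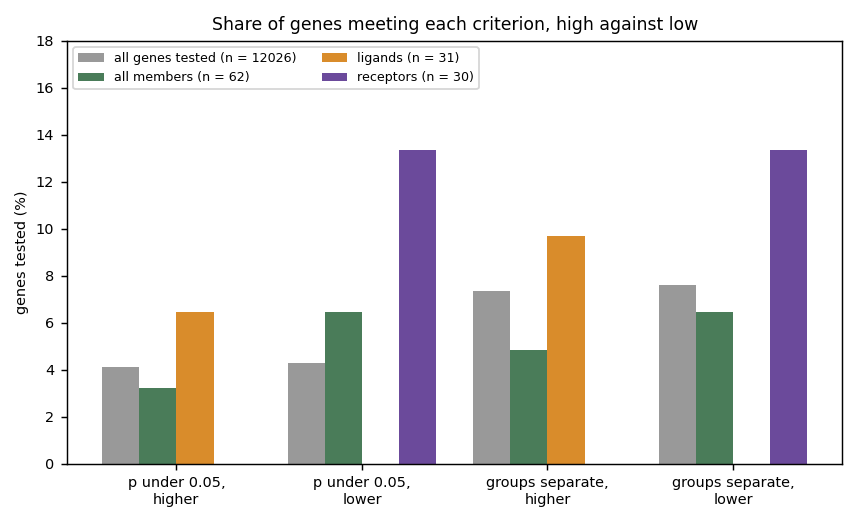
Percentage of genes tested (y axis) that met 4 criteria, for all genes tested, all members, ligands and receptors. The members' bars (3.23%, 6.45%, 4.84% and 6.45%) stand beside 4.12%, 4.27%, 7.33% and 7.61% of all genes; the ligands have 0 genes under both lower criteria and the receptors 0 under both higher ones, and their other bars rest on 2 to 4 genes each.

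By role, both genes at an unadjusted p under 0.05 on the higher side encode ligands, or 6.45% of 31 tested, against 4.12% of all genes. All 4 on the lower side encode receptors, or 13.3% of 30 tested, against 4.27% of all genes. The median log2 difference, here always the high minus the low mean of log2(FPKM + 1), was 0.04 for the ligands and −0.02 for the receptors, against 0.00018 for all genes tested and 0.02 for all members. The ligand value turned without high library 1, where it was −0.0038 with 15 of 31 ligands higher, against 23 of 31 with all libraries. These are descriptions of counts of 2 and 4 genes, and the difference between the roles was not tested. Members had a lower median level than all genes tested, 4.80 against 7.25 FPKM. The standard error of their log2 differences was larger, with a median of 0.102 against 0.0900.

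**Figure D2:**
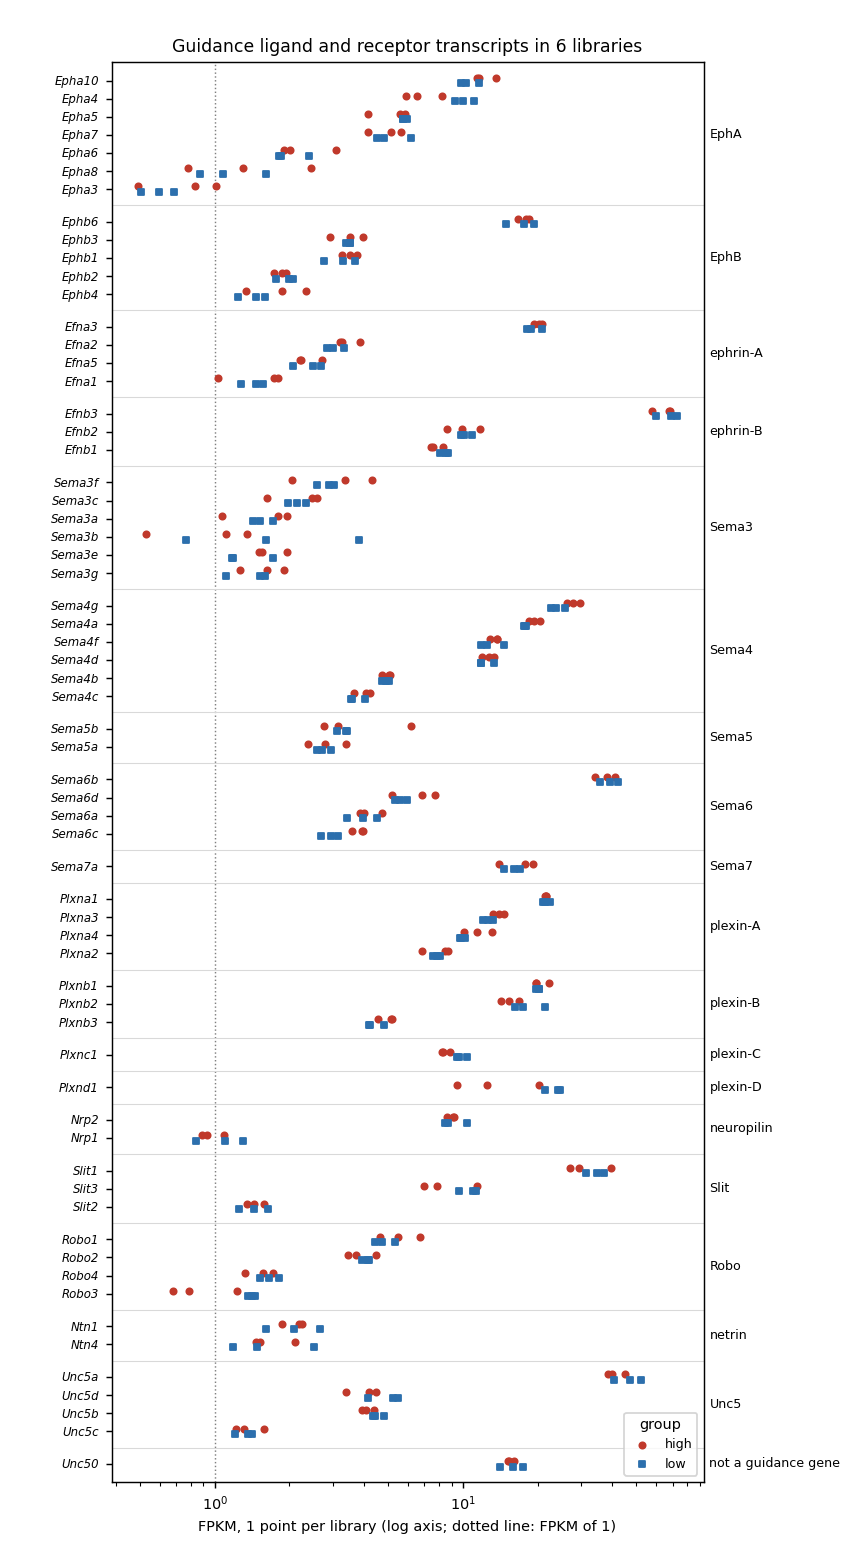
FPKM of every member in each library (x axis, logarithmic), ordered by family and by mean level. Levels run from Epha3, at 0.493 to 1.02 FPKM, to Efnb3, at 58.1 to 72.7 FPKM, and the points of the groups intermingle except in 7 genes.

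The 7 genes without overlap lie on 6 chromosomes of GRCm38 in the GENCODE annotation. Epha4 is at chr1:77367185-77515088 and Plxnd1 at chr6:115954811-115995005, both on the minus strand, and Sema6c is at chr3:95160457-95174024 on the plus strand. No exon of these 3 genes, of Robo3 or of Sema4g overlaps an exon of another annotated gene, while Plxnc1 and Sema4a share 115 and 73 exonic bases with unnamed or microRNA genes on the same strand that the table does not list. The start regions of the 3 members with the smallest p are shown because these genes carry the clearest contrasts. Each holds the 250 bases before a transcription start that RefSeq gives in GRCm38.p6, 5′ to 3′ on the gene's strand. They lie at chr1:77515089-77515338 for Epha4, chr6:115995006-115995255 for Plxnd1 and chr3:95160170-95160419 for Sema6c. Sema6c has 2 such windows, of which 1 is shown. Capitals mark the GC box, GGGCGG or its reverse complement.
Epha4: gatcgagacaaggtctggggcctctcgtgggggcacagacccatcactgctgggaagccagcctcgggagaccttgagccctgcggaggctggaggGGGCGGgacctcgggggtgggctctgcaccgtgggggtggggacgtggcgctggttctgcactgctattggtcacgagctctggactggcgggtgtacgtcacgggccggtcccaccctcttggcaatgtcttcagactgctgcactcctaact
Plxnd1: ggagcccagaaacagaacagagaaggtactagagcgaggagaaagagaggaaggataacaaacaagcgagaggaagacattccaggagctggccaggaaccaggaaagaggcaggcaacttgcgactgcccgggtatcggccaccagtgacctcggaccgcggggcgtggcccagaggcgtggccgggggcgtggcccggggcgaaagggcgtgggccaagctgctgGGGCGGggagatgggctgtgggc
Sema6c: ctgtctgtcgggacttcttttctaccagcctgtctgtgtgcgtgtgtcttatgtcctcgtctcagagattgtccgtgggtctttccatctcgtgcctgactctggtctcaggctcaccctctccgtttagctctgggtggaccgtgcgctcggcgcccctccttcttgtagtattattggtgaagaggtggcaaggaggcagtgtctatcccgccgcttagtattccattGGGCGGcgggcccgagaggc

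Each of the 3 windows holds 1 GC box and no TATA box (TATAAA), and their GC contents are 66.0%, 64.8% and 57.6%. Of the 63 members, 54 matched an entry, with 70 windows in all. Their windows had a median GC content of 64.6%, against 52.4% in all 32851 windows and 60.0% in the windows of the genes tested. A GC box on either strand was in 72.9% of the members' windows, against 32.7% of all windows and 57.8% of those of the genes tested, and a TATA box in 2.86%, against 12.4% and 6.09%. The CCAAT box was in 25.7% of the members' windows, against 33.8% and 34.8%, and the full cAMP response element, TGACGTCA, in 0 of them, against 1.55% and 2.56%. A match describes letters and does not mark a bound site.

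Among the 12 Eph receptors, Epha4 was the 1 gene with separate groups. EphA4 is a receptor kinase that binds ephrins of both classes. Epha4 had 6.55, 8.26 and 5.88 FPKM in high libraries 1 to 3, against 11.1, 9.98 and 9.29 in low libraries 1 to 3. Every high library lay below every low library, with means of 6.90 ± 1.23 against 10.1 ± 0.900 (SD, n = 3 each) and a ratio of 0.682. The log2 difference was −0.50 (SE 0.117), with an unadjusted limma p of 0.00272, the smallest among the members, and an adjusted p of 0.505. The exact 2-sided permutation p was 0.1, the smallest that 3 against 3 libraries allow, and this value holds for all 7 members without overlap. Across 18 alternative analyses the difference of Epha4 ran from −0.62 to −0.41, its unadjusted p was under 0.05 in 18, and its adjusted p lay between 0.117 and 0.979.

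The other EphA genes overlapped between groups. Epha10, which encodes a receptor without kinase activity, was the most abundant, at 11.4, 13.6 and 11.6 FPKM in high libraries 1 to 3, against 9.81, 10.3 and 11.6 in low libraries 1 to 3. Low library 3 reached the level of high libraries 1 and 3. Single libraries had 4.16 to 6.17 FPKM of Epha5 and Epha7, and 0.781 to 3.08 of Epha6 and Epha8. Epha3 lay below the filter, at 0.781 ± 0.266 in the high and 0.595 ± 0.0892 in the low group, with an unfiltered log2 difference of 0.15 (SE 0.129). Of the 5 EphB genes, 3 were higher and 2 were lower and 0 had separate groups. The most abundant, Ephb6, likewise encodes a receptor without kinase activity and had 17.9, 18.4 and 16.7 FPKM against 19.4, 14.9 and 17.6. The low libraries span the range of the high ones. Ephb1, Ephb2 and Ephb3, receptors of ephrin-B, had 1.73 to 3.95 FPKM in single libraries.

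Ephb4, a receptor of veins as well as neurons, had 2.33, 1.34 and 1.87 FPKM in the high and 1.24, 1.46 and 1.60 in the low group. Its level in the high libraries followed the order of 10 endothelial and mural markers, which summed to 113, 83.5 and 92.7 FPKM there and to 75.7, 84.9 and 82.0 in the low libraries. Of those markers 8 had a higher mean in the high group and 2 had separate groups. In the low libraries the order of Ephb4 differed from theirs. Sums of 9 oligodendrocyte markers (418, 349 and 404 FPKM) and 8 meningeal markers (60.7, 12.1 and 30.9) had the same order in the high libraries. Robo4, a receptor gene of endothelium, did not, at 1.56, 1.32 and 1.71 FPKM. The part of any of these markers in the level of Ephb4 was not tested.

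The ephrins, the ligands of these receptors, showed no member with separate groups. Efnb3, a membrane-spanning ephrin known as a midline barrier in the spinal cord, was the most abundant of all members, at 58.1, 67.6 and 68.6 FPKM in high libraries 1 to 3, against 72.7, 60.3 and 68.9 in low libraries 1 to 3. Among the ephrin-A genes, whose products are held by a lipid anchor, Efna3 led with 20.2, 20.8 and 19.4 against 18.8, 18.1 and 20.8. Both sets of values overlap. The other 5 ephrins had group means of 1.44 to 10.3 FPKM, and among them Efna5, a ligand known from topographic mapping of retinal axons, had 2.06 to 2.71 FPKM in single libraries. All 3 ephrin-B genes had a lower mean in the high group, with log2 differences of −0.10 for Efnb1, −0.05 for Efnb3 and −0.03 for Efnb2. The median of the 3 was above 0 under 2 of 18 alternatives, so that no direction can be given for the class.

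Semaphorins were the largest family, with 19 members. Of them 17 were higher and 2, Sema3b and Sema6b, were lower in the high group, where 50.1% of all genes tested were higher. The median log2 difference was 0.08, and between 12 and 17 of the 19 were higher under the alternatives that kept all 19, with the lowest count without high library 1 and a median between 0.04 and 0.12. The differences were small, and 2 of the 19, Sema6c and Sema4g, had an unadjusted p under 0.05. Genes of 1 family measured in the same 6 libraries are not independent, and this count was not tested.

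Sema6c encodes a membrane-spanning semaphorin of class 6, a class that binds A-type plexins. Sema6c had 3.96, 3.59 and 3.93 FPKM in the high libraries, against 2.69, 3.13 and 2.93 in the low ones. The groups were separate, at 3.82 ± 0.203 against 2.92 ± 0.217, a ratio of 1.31. The log2 difference was 0.30 (SE 0.0809; adjusted p = 0.540 by limma), and in the authors' deposited table this gene had the smallest p of the members, 0.00616. Over 17 alternatives, its difference ran from 0.22 to 0.38 and its adjusted p from 0.167 to 0.979. Sema6b was the most abundant semaphorin, with 38.0, 41.1 and 34.0 FPKM against 42.1, 35.6 and 39.3, and the ranges coincide. Sema6d (6.58 ± 1.28 against 5.61 ± 0.320) and Sema6a (4.18 ± 0.458 against 3.95 ± 0.537) overlapped.

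All 6 class 4 semaphorins, which span the membrane and bind mainly B-type plexins, had a higher mean in the high group, with a median log2 difference of 0.07 that ranged from 0.03 to 0.13 over the alternatives. With the GC and length trend removed, or without low library 1 or 2, 5 of the 6 were higher. Sema4g, a ligand of plexin-B2, led the class with 26.2, 27.7 and 29.7 FPKM in the high libraries, against 23.7, 22.7 and 25.7 in the low ones. The lowest high library exceeded the highest low library by little. Its log2 difference was 0.20 (SE 0.0729; adjusted p = 0.575 by limma). Sema4a, which is known from the retina and from immune cells, had 19.4, 18.5 and 20.5 against 17.6, 17.8 and 17.9. Its groups were separate too, by a log2 difference of 0.12 (SE 0.0615) with an unadjusted p of 0.0787 and an adjusted p of 0.605. For Sema4a the difference was 0.08 after correction for GC content and length (unadjusted p of 0.282). Sema4d, which is made by oligodendrocytes, stood at 12.7 ± 0.717 against 12.3 ± 0.880. Sema4b, Sema4c and Sema4f overlapped too, at 3.53 to 14.7 FPKM in single libraries.

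Secreted class 3 semaphorins were expressed at low levels, with means over all libraries of 1.50 to 3.04 FPKM and 0 of 6 with separate groups. Sema3f, the highest, had 4.29, 2.06 and 3.36 FPKM against 2.89, 3.03 and 2.59, so that high libraries 1 and 2 lay on opposite sides of the low group. Sema3a, a repellent that acts through neuropilin-1, Sema3c and Sema3g had 1.07 to 2.57 FPKM in single libraries, with overlapping groups. Sema3b had the widest spread, with 1.35, 0.529 and 1.11 in the high libraries, against 1.60, 0.763 and 3.83 in the low ones. Its 2 highest values were in low libraries 3 and 1, which also carried the choroid plexus markers, of which 10 of 10 had a lower mean in the high group and 2 had separate groups. The log2 difference of Sema3b was −0.52 (SE 0.338) with all libraries and 0.16 with those 2 left out together. Plxnb2, which encodes the receptor of Sema4g, had 16.8, 14.2 and 15.3 against 17.4, 16.1 and 21.5 FPKM, with its highest value also in low library 3. Its log2 difference was −0.23 with all libraries and −0.06 without low libraries 1 and 3.

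**Figure D3:**
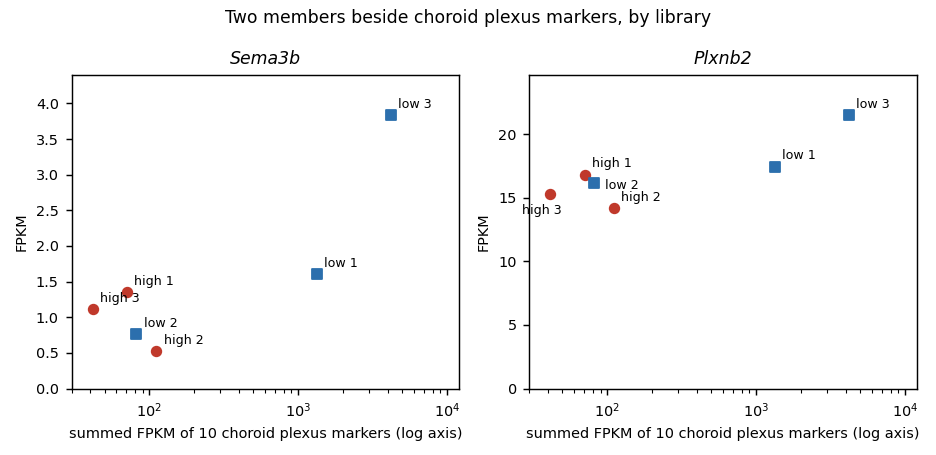
FPKM of Sema3b and of Plxnb2 (y axes, from 0) against the summed FPKM of 10 choroid plexus markers (x axis, logarithmic), 1 point per library. Low library 3, with 4174 FPKM of markers, has the highest value of both genes, and the other 5 libraries have 0.529 to 1.60 FPKM of Sema3b.

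Of the remaining semaphorins, Sema7a, which is attached by a lipid anchor, had 17.8, 19.2 and 14.0 FPKM against 14.6, 16.9 and 16.1, with high library 3 below all others. The class 5 semaphorins carry thrombospondin repeats. Sema5b had 6.21, 2.76 and 3.14 FPKM against 3.12, 3.41 and 3.37, with high library 1 apart from the rest. These values overlap between the groups in both genes, and Sema5a (2.84 ± 0.507 against 2.75 ± 0.181) did too.

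Plexins, the receptors of the semaphorins, held 2 genes with separate groups among 9. Plexin-D1 is the receptor of Sema3e and is known in blood vessels and in wiring of the forebrain. Plxnd1 had 12.6, 20.3 and 9.51 FPKM in the high libraries, against 21.5, 24.6 and 24.1 in the low ones. The high group was more scattered than the low group, at 14.1 ± 5.59 against 23.4 ± 1.67, and high library 2 lay closest to the low group. The ratio of the means was 0.604 and the log2 difference −0.75 (SE 0.222), the largest in size of all members, with an unadjusted p of 0.00973 and an adjusted p of 0.553. Without high library 2 the difference was −1.03, and the adjusted p by limma was 0.0766, the lowest for any member in any of the 18 alternatives, whose values for Plxnd1 reached 0.979. Without high library 3 the difference was −0.52 and the adjusted limma p 0.590. In the authors' deposited table its p was 0.0513.

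Within the high group, Plxnd1, Epha4 and Robo3 shared 1 order of libraries, with high library 2 at the top and high library 3 at the bottom. Slc17a7 had the same order there but not in the low group, with 180, 256 and 138 FPKM in the high libraries, against 192, 171 and 230 in the low ones. Slc17a7 overlapped between the groups. The 8 neuronal markers of which it is 1 summed to 695 to 795 FPKM in the high and 723 to 778 in the low group. Of the 8, 5 had a higher and 3 a lower mean in the high group. Within the high group Rbfox3 shared the order of Slc17a7 and Syt1 did not. Slc17a6, Gad1, Gad2, Slc32a1 and Snap25 were instead lowest in high library 2. The part of Slc17a7 levels in the differences of Plxnd1, Epha4 and Robo3 was not tested. The ligand Sema3e had 1.96, 1.55 and 1.51 FPKM against 1.17, 1.72 and 1.19, with low library 2 inside the range of the high group.

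Plxnc1, which encodes the receptor of Sema7a, had 8.29, 8.27 and 8.87 FPKM in the high libraries, against 10.4, 9.66 and 9.50 in the low ones. A narrow gap divided the groups, at 8.48 ± 0.344 against 9.85 ± 0.472. The log2 difference was −0.19 (SE 0.0665; adjusted p = 0.571 by limma). The other plexins overlapped. Plxna1, the most abundant plexin, was nearly level, with 21.7, 21.6 and 21.4 FPKM against 22.5, 21.1 and 21.4. Plxnb1, a receptor of Sema4d, had 19.7, 19.8 and 22.2 against 19.7, 20.3 and 20.3. Plxna2 had 7.99 ± 1.00 against 7.83 ± 0.246. Plxna4 (11.5 ± 1.52 against 9.90 ± 0.278) and Plxna3 (13.9 ± 0.737 against 12.6 ± 0.618) had higher means in the high group, with log2 differences of 0.19 and 0.13 and unadjusted p-values of 0.0705 and 0.0875. Plxnb3, a plexin of oligodendrocytes, had 4.97 ± 0.352 against 4.41 ± 0.346. The 9 oligodendrocyte markers, all with a higher mean in the high group and 4 with separate groups, summed to 349 to 418 FPKM in the high libraries, against 320 to 356 in the low ones, and their part in the level of Plxnb3 was not tested. Of the neuropilins, Nrp2, a co-receptor of Sema3f, had 9.17, 9.12 and 8.64 FPKM against 10.4, 8.48 and 8.70, and Nrp1 stood near 1 FPKM in every library, from 0.842 to 1.30.

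**Figure D4:**
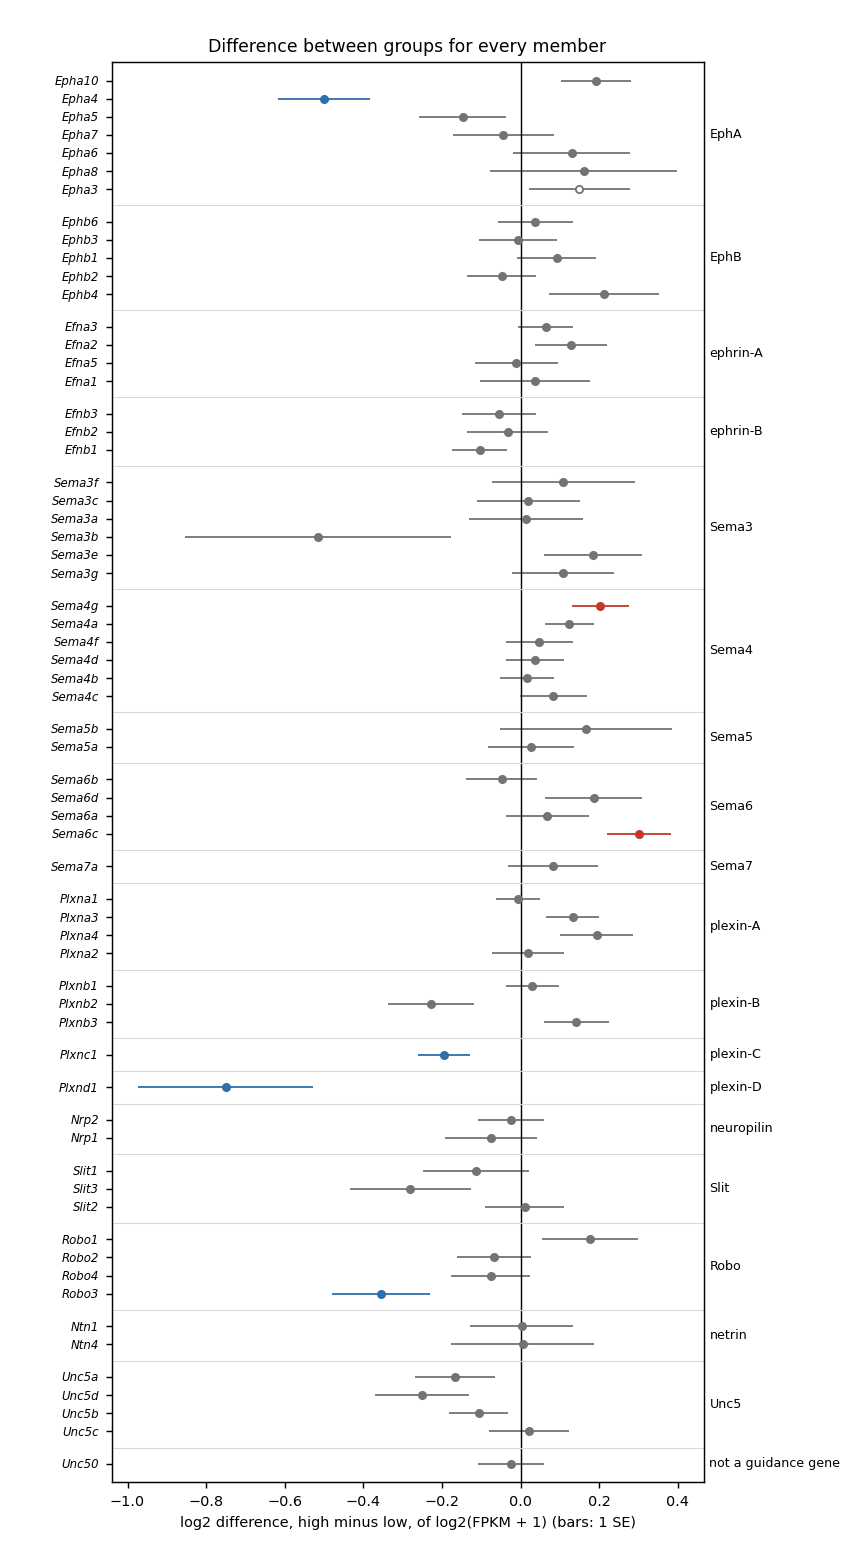
Log2 difference, high minus low, of every member with its standard error (x axis; 1 SE), by family; blue and red mark an unadjusted p under 0.05 and the open circle the gene under the filter. Plxnd1 and Epha4 lie farthest below 0 among the coloured points, at −0.75 and −0.50.

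Of the repellent ligands, Slit1 was abundant and Slit2 was not. Slit1 had 27.1, 39.6 and 29.4 FPKM in the high libraries, against 36.9, 31.4 and 34.7 in the low ones, with the highest value of all in high library 2. Slit3 showed the same arrangement, at 7.88, 11.4 and 6.98 against 11.3, 9.65 and 11.0. Their log2 differences were −0.11 (SE 0.134) and −0.28 (SE 0.154) with all libraries and −0.27 and −0.47 without high library 2, with adjusted limma p-values of 0.297 and 0.137 in that fit. Without high library 1 the difference of Slit1 was −0.0049, without high library 3 it was −0.06, and with low libraries 1 and 3 left out it was 0.0073, so that its direction turned. Slit3 had −0.15 without high library 3 and −0.15 without low libraries 1 and 3. Slit2 had group means of 1.46 ± 0.115 and 1.44 ± 0.188.

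Robo3 was the 1 Robo receptor gene with separate groups. In the embryo its product lets commissural axons cross the midline. Robo3 had 0.788, 1.23 and 0.681 FPKM in the high libraries, against 1.36, 1.46 and 1.42 in the low ones, a low level at which a log2(FPKM + 1) difference understates the ratio. The means were 0.899 ± 0.291 and 1.41 ± 0.0466, a ratio of 0.637, and the log2 difference was −0.36 (SE 0.125; adjusted p = 0.575 by limma). With a pseudocount of 0.1 the difference was −0.64. Robo3 passed the filter of a mean FPKM of at least 1 only through the low group, at 1.16 over all libraries. In the fit without a filter its difference was also −0.36, with an adjusted limma p of 0.571. Robo1, a Slit receptor and the most abundant of the 4, had 6.75, 4.64 and 5.49 FPKM against 4.74, 5.31 and 4.43, and the groups overlap. Robo2 (3.86 ± 0.532 against 4.08 ± 0.151) and Robo4, a receptor of endothelium (1.53 ± 0.197 against 1.66 ± 0.147), overlapped as well.

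The 2 netrin ligands and Unc5c were low in level, and the other 3 Unc5 receptors were higher. Ntn1 had 2.26, 1.86 and 2.19 FPKM in the high libraries, against 2.09, 2.65 and 1.62 in the low ones, with the low group on both sides of the high group, and Ntn4 stood at 1.69 ± 0.351 against 1.73 ± 0.698. Unc5a was the second most abundant member after Efnb3, at 40.1, 45.1 and 38.5 FPKM against 52.1, 40.5 and 47.2. High library 2 and low library 2 overlap, and the log2 difference was −0.17 (SE 0.102; adjusted p = 0.658). For Unc5a it was −0.08 without low library 1 and 0.02 without low libraries 1 and 3, so that its direction turned. Unc5d (4.01 ± 0.575 against 4.96 ± 0.717) and Unc5b (4.13 ± 0.227 against 4.53 ± 0.236) also had lower means in the high group, with log2 differences of −0.25 (SE 0.120) and −0.11 (SE 0.0749), and Unc5c, at 1.36 ± 0.188 against 1.33 ± 0.110, did not. The median of the 4 Unc5 genes was −0.14, and lay between −0.17 and −0.06 over the 17 alternatives that tested all 4. None of the 4 had an unadjusted p under 0.05. Unc50, which is no guidance gene, had 15.5 ± 0.471 against 15.9 ± 1.73 FPKM.

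**Figure D5:**
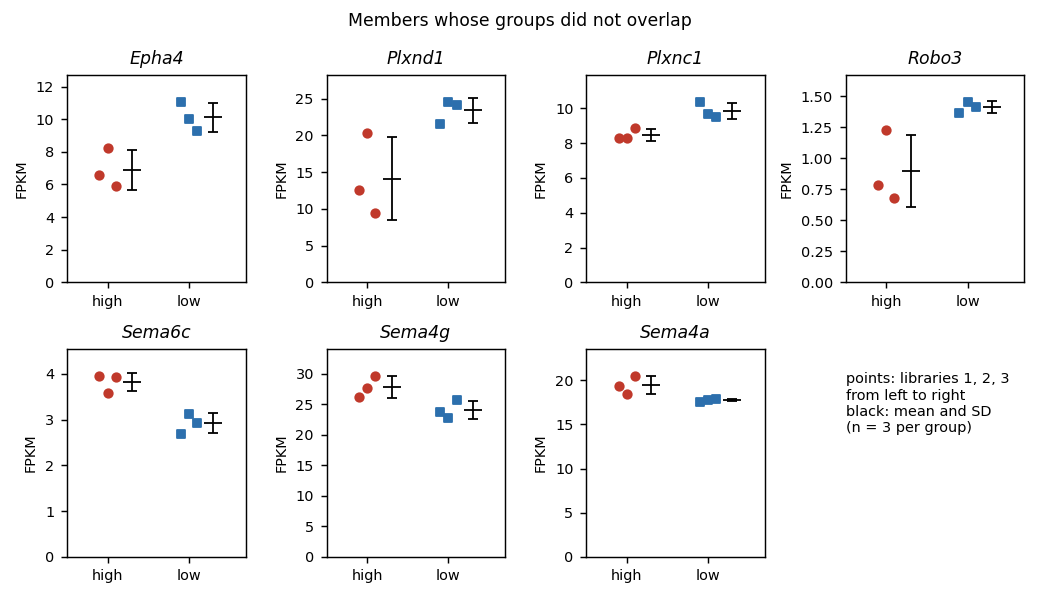
FPKM per library (points) with the mean and SD of each group (black, n = 3) for the 7 members whose groups did not overlap; each y axis starts at 0. Epha4, Plxnd1, Plxnc1 and Robo3 are lower in the high group, with high library 2 nearest to the low group for Epha4, Plxnd1 and Robo3, and Sema6c, Sema4g and Sema4a are higher.

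The members' transcripts are also rich in G and C, with a median of 56.0% against 50.2% in the genes tested. Over the genes tested, the difference between the groups followed transcript GC content with a Spearman rho of 0.387, and over the 62 members with a rho of 0.108, both across genes that are not independent replicates. With the dependence on GC content and length taken out of each library, 11 members, or 17.7%, had an unadjusted p under 0.05, against 7.55% of all genes, and 0 passed adjustment. These were the same 6 genes and 5 others. Sema3e (0.28) and Plxna4 (0.18) were higher by these log2 differences, and Plxnb2 (−0.26), Unc5a (−0.21) and Efnb1 (−0.16) were lower, with adjusted limma p-values of 0.605 to 0.649 for the 5. With low libraries 1 and 3 left out, and no such correction, the differences were −0.03 for Sema3e, −0.06 for Plxnb2 and 0.02 for Unc5a. In the same fit Plxna4 and Efnb1 kept their direction, at 0.21 and −0.04. For Epha4 and Plxnd1 the corrected differences were −0.46 and −0.78.

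Other genes of the pathway, such as co-receptors, adaptors and regulators of the cytoskeleton, were taken from a list of 72, of which 69 were tested. Of these 33 were higher and 36 lower, with a median log2 difference of −0.0060, and 0 passed adjustment. At an unadjusted p under 0.05, 6 were higher, or 8.70%, and 1 was lower, or 1.45%, where the shares of all genes are 4.12% and 4.27%. Groups were separate for 9 higher and 4 lower genes, or 13.0% and 5.80%, against 7.33% and 7.61% of all genes. Srgap1, a GTPase-activating protein that binds Robo receptors, had 4.51, 3.60 and 4.30 FPKM in the high libraries, against 3.20, 3.01 and 2.78 in the low ones, without overlap (log2 difference 0.36, SE 0.0942; adjusted p = 0.535 by limma). Tiam1, an exchange factor for Rac in ephrin and Eph signalling, was the 1 gene on the lower side, at 15.8, 19.8 and 14.4 against 23.3, 22.8 and 20.6, with high library 2 nearest to the low group (log2 difference −0.41, SE 0.113; adjusted p = 0.548). Gpc1, a proteoglycan that binds Slit, had 22.2 ± 0.901 against 19.2 ± 0.545. Cntn2, an axonal adhesion molecule, had 16.0 ± 2.12 against 12.9 ± 0.523. Grip2, a scaffold that binds ephrin-B, had 6.20 ± 0.709 against 5.02 ± 0.205. Adjusted limma p-values of these 3 were 0.553, 0.564 and 0.572.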

How the data were processed

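Poly(A) RNA was sequenced in 3 libraries per group, per the labels' protocols, and the authors deposited 1 table of gene FPKM with their own log2 fold change and p-value per gene. The submitters' processing notes name GRCm38 as the build and fastp, HISAT2 and StringTie as tools, with no version; whether counting used strand is not stated there. The deposited log2 fold change equals log2 of the ratio of group mean FPKM, and the authors' deposited p-value that of an equal-variance test of untransformed FPKM, in 13170 of 13170 genes each (tolerance 1e-06). FPKM carry no counts, so limma 3.58.1 in R 4.3.3 was fitted to log2(FPKM + 1) of the 12026 genes whose mean FPKM reached 1, with a variance trend, 2-sided tests and Benjamini-Hochberg adjustment over all of them. The table's lowest mean FPKM is 0.500, too high to show the steps of single reads, and absolute depth is unknown. Library sums were 247560 to 253867 FPKM, and correlations between libraries 0.979 to 0.991. The fit was tested on simulated data.

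Members, lists and tests were chosen with earlier results of these data known. By rule, values in every library are given for members with an unadjusted p under 0.05, for members with separate groups and the smallest p in their family, and for the most abundant member of each family; of the downstream genes, the 5 with the smallest p are named. Sema4a, Sema3b, Sema3e, Plxnb2, Ephb4 and Slit3 were added after their values were seen. Alternatives were other pseudocounts, filters, scalings and variance models, array weights, the replicate number as a block, a GC and length trend (GENCODE M21 transcripts, splines with 5 degrees of freedom), and libraries left out. Summaries and figures were made in Python 3.11.15 (pandas 2.3.3, numpy 2.4.6, matplotlib 3.10.9, scipy 1.17.1). Promoter sequences are from RefSeq.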

Additional observations from a re-analysis of the deposited data

How the results depend on the processing

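Under all 18 alternatives 0 members and 0 of the listed downstream genes passed adjustment. The 7 members without overlap kept their direction in every alternative that tested them. They were chosen for separate groups, so leaving out libraries or changing the pseudocount, filter or variance model could not turn their direction. The 6 members at an unadjusted p under 0.05 became 13 with array weights, 11 with the GC and length trend removed and 2 with low libraries 1 and 3 left out together, and ranged from 4 to 14 when single libraries were left out. The 7 members with separate groups became 11 with the trend removed, of which 6 were among the 7, 11 with the trend and the replicate block, and 28 without low libraries 1 and 3, where 1 low library remained and was assumed to vary like the high ones; leaving out single libraries gave 10 to 20, since smaller groups separate more often. The median log2 difference of the members was −0.0153 with a mean FPKM of at least 5, and −0.0194 to 0.0229 with single libraries left out.

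With the replicate block 6 members had an unadjusted p under 0.05, the same 6 as without it. The labels state no pairing of libraries. Same-numbered libraries deviated from their group means with correlations of −0.0939, −0.206 and −0.156, and no library correlated best with its own number. With 3 libraries per group the deviations sum to 0 within each group, so these correlations cannot tell whether the libraries were paired. FPKM of low genes rest on few fragments, and genes such as Robo3 and Epha3 are limited by this to an unknown degree.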

Other observations

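High library 1 was the highest of the 6 libraries for 17 of the 62 tested members, or 27.4%, where it was the highest for 16.0% of all genes tested. The same library had the highest sum of 8 markers of meninges and fibroblasts, 60.7 FPKM against 12.1 to 30.9 in the other 5 libraries, and their part in the members' levels was not tested. High library 2 was the lowest for 15 members, or 24.2%, and for 23.4% of all genes. Summed over the 31 receptors, FPKM were 255, 263 and 242 in the high and 278, 261 and 273 in the low libraries, and over the 31 ligands 322, 339 and 318 against 332, 305 and 332. Summed over the 9 plexins they were 118, 124 and 114 against 127, 126 and 131, and over the 6 class 4 semaphorins 81.0, 82.4 and 83.6 against 76.2, 72.6 and 78.5. The plexin and class 4 sums did not overlap between the groups. Without Plxnd1 the plexin sums were 105, 103 and 105 against 106, 102 and 107, which overlap, and 5 of the 9 plexins had a positive log2 difference. No test was made of these sums.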
